A study of Mus musculus with 5 samples.

Results

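Lysosomal hydrolases and the proteins of the lysosomal membrane were followed here through an RNA immunoprecipitation of wild-type mouse neocortex at E13.5, an embryonic stage at which cortical neurons are being made. The members were 41 genes chosen by name for their lysosomal function, with earlier results of these data known, each matched by symbol to 1 row among the 49875 gene IDs of the table, and all 41 were found. They comprised proteases, glycosidases, glycosaminoglycan enzymes, lipid hydrolases, activator and carrier proteins, and membrane proteins. The 5 libraries were 2 of RNA precipitated with an antibody against eIF4E, 1 of RNA precipitated with rabbit control immunoglobulin G (IgG), and 2 of Input, the cytoplasmic fraction that served both precipitations. Every library came from wild-type embryos of the same age, the labels give no treatment, and the titles call the repeats of eIF4E and Input biological without saying which animals, litters or pools lay behind them. The cells had been dissociated with enzymes and lysed in a mild detergent, so the Input is a cytoplasmic fraction of dissociated cells and not whole tissue. The titles say neocortex, while the tissue field reads forebrain.

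The lysosome is the acidic organelle in which proteins, glycans, lipids and whole organelles are broken down. Its enzymes are made at the endoplasmic reticulum, most receive a mannose 6-phosphate tag, and they are then sorted to the lysosome. There, membrane proteins such as LAMP1 shield the membrane, and others carry products out. Loss of single enzymes causes storage disorders in humans, many of which affect the brain. Transcription factors of the MiT family, TFEB and TFE3 among them, bind an E-box with the core CACGTG in the promoters of many of these genes, where its extended form is called the CLEAR element. The protein eIF4E binds the cap at the 5′ end of an mRNA as the first step of recruiting the ribosome, and the precipitation asked which mRNAs were with it.

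The promoters of these genes are shown first because the members were followed as a set and this element is what many lysosomal promoters are known to share. RefSeq promoters (build GRCm38.p6, 250 bases before to 50 after the annotated start) were in the table for 35 of the 41 members. The letters CACGTG, which read the same on both strands, were found in 12 of these 35 genes (34.3%), against 8.09% of 27025 genes in the table and 11.8% of the tested genes that had a promoter in it. The longer form TCACGTGA, which contains CACGTG, was found in 5 of 35 members (14.3%) and in 1.12% of all genes. The CLEAR form of 10 letters, which adds a G before and a C after that longer form, was found in 1 member, Cln3, and in 0.37% of all genes. Such a match is a description of the letters and not of a bound site. The 5 promoters below are those of the 3 members with the lowest ratio of eIF4E to Input (Naglu, Gaa and Lamp1), of Cln3 for its match of 10 letters, and of Ctsl, the one member with a match that was higher in eIF4E. Each is given 5′ to 3′ on the strand of the gene, with CACGTG in capitals.
Naglu, chr11:101069844-101070143, strand plus: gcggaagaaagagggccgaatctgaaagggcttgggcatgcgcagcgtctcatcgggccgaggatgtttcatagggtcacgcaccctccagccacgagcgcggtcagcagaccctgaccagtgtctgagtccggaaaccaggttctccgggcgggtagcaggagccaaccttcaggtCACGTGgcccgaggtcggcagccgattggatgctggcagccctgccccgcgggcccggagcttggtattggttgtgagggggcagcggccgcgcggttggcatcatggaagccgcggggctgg
Gaa, chr11:119267713-119268012, strand plus: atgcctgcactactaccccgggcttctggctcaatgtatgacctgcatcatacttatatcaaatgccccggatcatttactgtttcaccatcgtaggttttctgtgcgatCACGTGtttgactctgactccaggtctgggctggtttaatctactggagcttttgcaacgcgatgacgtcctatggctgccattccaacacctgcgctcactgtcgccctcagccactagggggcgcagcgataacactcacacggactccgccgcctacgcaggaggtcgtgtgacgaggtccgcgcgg
Lamp1, chr8:13158911-13159210, strand plus: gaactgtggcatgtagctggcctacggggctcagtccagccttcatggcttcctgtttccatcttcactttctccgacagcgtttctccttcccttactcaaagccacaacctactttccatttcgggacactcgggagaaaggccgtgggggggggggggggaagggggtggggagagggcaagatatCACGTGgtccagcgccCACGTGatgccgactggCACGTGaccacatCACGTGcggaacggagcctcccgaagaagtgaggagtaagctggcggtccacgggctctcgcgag
Cln3, chr7:126583187-126583486, strand minus: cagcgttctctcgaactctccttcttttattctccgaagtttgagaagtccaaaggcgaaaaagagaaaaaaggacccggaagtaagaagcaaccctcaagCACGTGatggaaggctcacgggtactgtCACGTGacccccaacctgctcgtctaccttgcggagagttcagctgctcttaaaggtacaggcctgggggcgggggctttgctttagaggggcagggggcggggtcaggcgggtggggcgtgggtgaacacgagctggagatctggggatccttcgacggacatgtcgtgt
Ctsl, chr13:64370471-64370770, strand minus: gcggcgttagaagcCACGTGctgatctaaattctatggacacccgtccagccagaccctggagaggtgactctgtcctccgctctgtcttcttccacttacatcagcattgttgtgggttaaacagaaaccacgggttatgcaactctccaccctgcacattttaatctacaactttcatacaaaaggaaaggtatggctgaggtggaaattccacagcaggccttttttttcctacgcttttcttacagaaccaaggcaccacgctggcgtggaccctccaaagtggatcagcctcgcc

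In Lamp1 the 4 matches began 61, 45, 28 and 15 bases before the annotated start. The single matches of Naglu and Gaa began 73 and 140 bases before it. That of Ctsl lay farther out, at 236 bases. The remaining members with a match were Arsa, Ctsa, Ctsd, Gla, Glb1, Mcoln1 and Sgsh. The promoters of the members had a median GC content of 56.7%, against 52.7% over all promoters in the table. No member promoter began at the annotated start with a C followed by 4 pyrimidines, the mark of a terminal oligopyrimidine leader, which 3.01% of all genes showed.

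**Figure D1:**
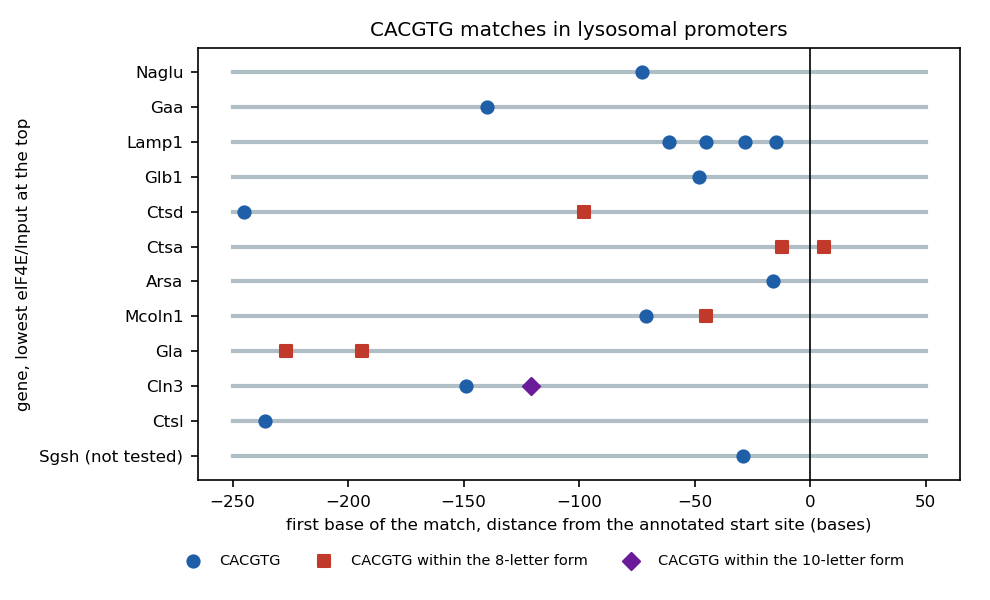
Positions of CACGTG in the promoters of the 12 members that hold it, as distance in bases from the annotated start site, with genes ordered by their ratio of eIF4E to Input (lowest at the top). Grey lines span the 250 bases before and 50 after the start. Lamp1 holds 4 matches within 61 bases of the start, and the match of Ctsl is 236 bases away.

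The values are RSEM abundances per gene, which correct for transcript length and library size. The table does not say whether they are TPM or FPKM, so their comparison between libraries carries a factor per library that is not known, and read depth is unknown. Column totals ranged from 560076 in IgG to 848550 in an Input library. Both eIF4E libraries correlated with r = 0.989 and both Input libraries with r = 0.993 on the log2 scale across 12769 tested genes, while IgG reached 0.593 to 0.707 with the other 4, and IgG listed 20.8% of tested genes at 0. The mRNA of eIF4E itself measured 1231 and 1300.1 in eIF4E, 120.2 in IgG and 198 and 205 in Input. All 15 markers of neocortical progenitors and neurons on the list, Emx1 and Tbr1 among them, were above 0 in every library.

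As a share of all abundance in a library, which does not depend on the unknown factor, the 41 members made up 0.16% and 0.165% of the eIF4E libraries, 0.136% of IgG, and 0.247% and 0.242% of the Input libraries. Both eIF4E libraries thus held a smaller share than both Input libraries, and the lone IgG library held the smallest. A share is relative and gives no amount. Within any library, fewer cells with an mRNA and less of it per cell cannot be told apart. In the Input, Psap, Npc2, Cd63, Lamp1 and Ctsb were the most abundant members, at means of 458, 281, 259.7, 193 and 157 (n = 2), all above the abundance of 92% of tested genes. At the other end, Ids, Manba, Sgsh and Npc1 had Input means of 0.45, 0.49, 0.815 and 1.55. The average rank of the 39 members tested, as a percentile among tested genes, was 50.2 and 49.9 in eIF4E, 46.1 in IgG, and 60.8 and 61.2 in Input.

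**Figure D2:**
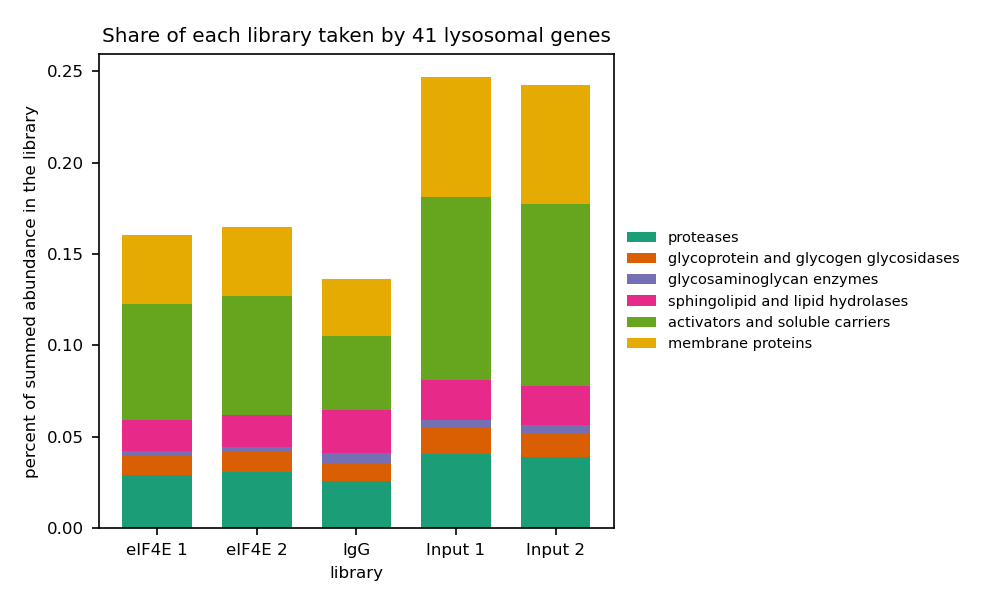
Percent of the summed abundance of each library taken by the 41 members, stacked by role, for eIF4E (n = 2), IgG (n = 1) and Input (n = 2). The totals are 0.16% and 0.165% in eIF4E, 0.136% in IgG, and 0.247% and 0.242% in Input, and activators with soluble carriers, mainly Psap and Npc2, take the largest part in each library.

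Setting eIF4E against Input addresses which mRNAs were more or less represented in the eIF4E precipitate than in the cytoplasmic fraction. It leaves the control precipitate out of account. There the members lay lower than Input as well, with a median log2 change of −0.96 in IgG, beside −0.43 for all tested genes. Most lysosomal members tested were lower in eIF4E, among them Naglu, Gaa, Lamp1, Cd63, Gm2a and Ctsb, which stood at 0.174 to 0.425 of Input (ratios to Input, here and below, are of value + 1). A smaller group was higher, from Lamp2 at 1.44-fold to Ids at 2.11-fold. A gene was tested if 2 or more libraries reached a value of 1, which 39 of the 41 members met. Manba, a mannosidase of glycoprotein breakdown, stayed below it at 0.44 and 0.38 in eIF4E, 0 in IgG and 0.73 and 0.25 in Input. Sgsh, a sulfatase of heparan sulfate, did so at 0.58 and 0.71 in eIF4E, 0 in IgG and 0.82 and 0.81 in Input. Ids passed that filter through its eIF4E libraries alone and Npc1 through IgG and Input alone, so the counts below describe the members that passed. With limma on log2(value + 1), 25 of 39 were lower and 7 higher (adjusted p under 0.05 over all genes), where 30.6% of all 12769 tested genes were lower, 43.3% higher and 73.9% either. The median log2 change of the 39 was −0.61, beside 0.16 for all tested genes. Libraries of the groups did not overlap for 37 of the 39, with 30 below and 7 above, where 87.8% of all tested genes did not overlap, 37.6% below and 50.3% above.

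Scaling changed the balance of all genes more than that of the members. Against 5535 higher and 3906 lower of all genes as deposited, median-of-ratios scaling gave 4418 and 5256, quantile normalization 4297 and 5145, and the same total for each library 6503 and 2748. For the members, 7 higher and 25 lower became 5 and 30, 5 and 30, and 7 and 22 in the same order. The median of all genes moved to −0.11, −0.11 and 0.36 on the log2 scale, and the median of the members relative to it was −0.79, −0.87 and −0.75, beside −0.76 as deposited.

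**Figure D3:**
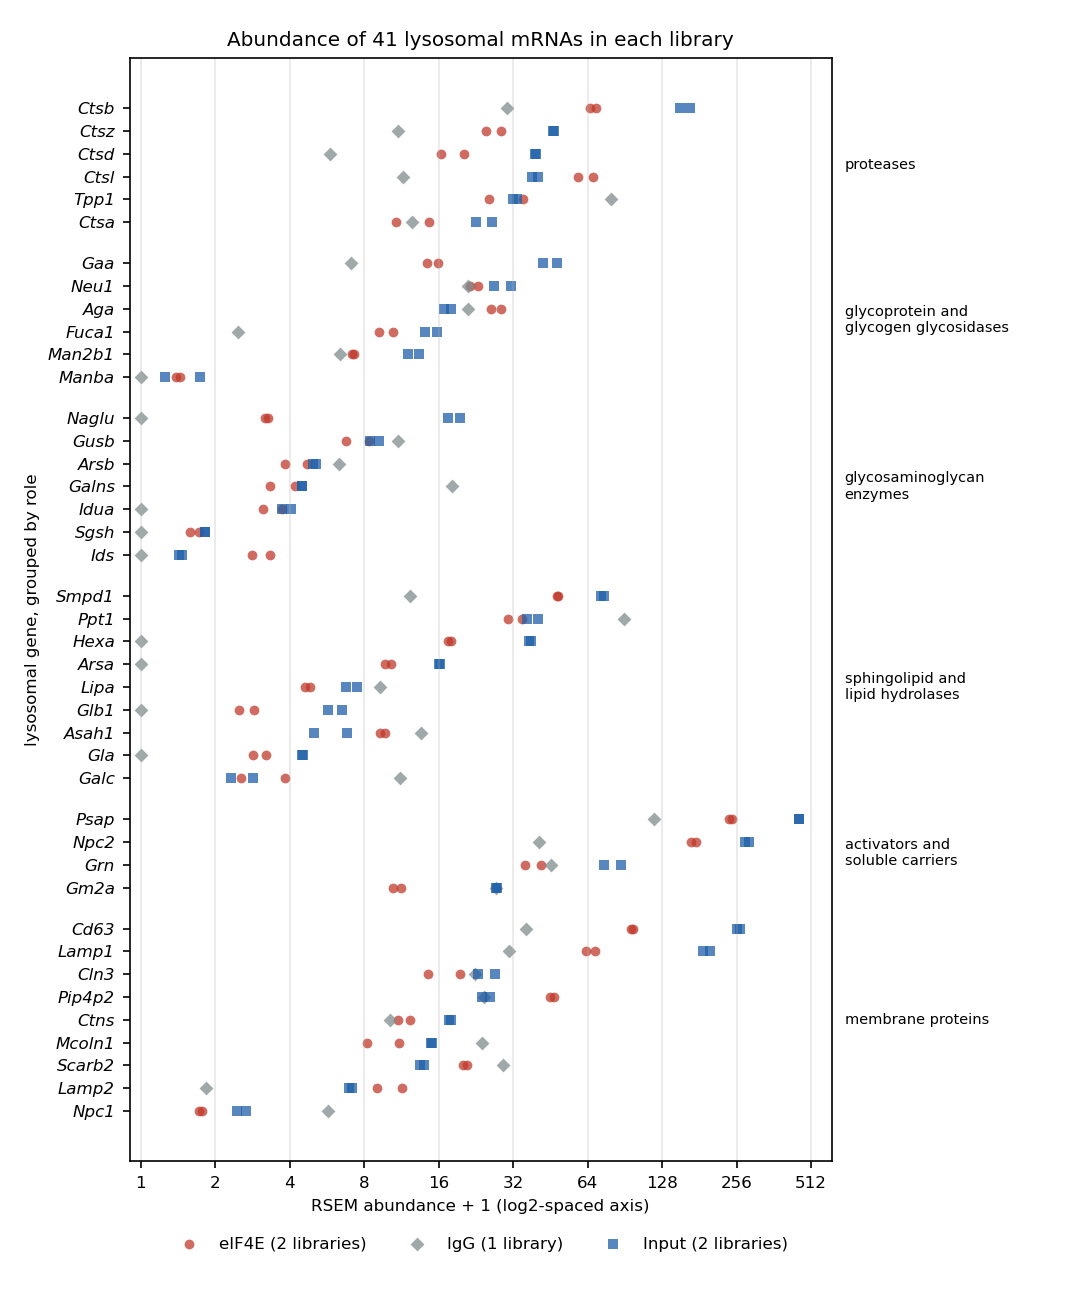
Abundance of each of the 41 members in each library, as value + 1 on a log2-spaced axis, grouped by role and ordered by Input mean. For Naglu, Gaa, Lamp1 and Cd63 both eIF4E circles lie left of both Input squares, for Ctsl, Aga and Pip4p2 they lie right of them, and 9 members have their IgG diamond at 1, a listed value of 0.

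Of all tested genes, 30.6% were lower and 43.3% higher in eIF4E than in Input, the measure for each class count that follows. Among the proteases, 4 of 6 were lower in eIF4E and 1 was higher. Ctsb (chromosome 14, 63122462 to 63145923), a cysteine cathepsin, was the most abundant of them and measured 64.3 and 68.1 in eIF4E, 29.3 in IgG and 164 and 150.1 in Input. That is 0.425 of Input (log2 −1.24, SE 0.07, limma adjusted p = 1.7e-04), with no overlap between eIF4E and Input libraries. Its span shares 774 bases with that of Fdft1, a sterol synthesis gene that was lower too (0.505 of Input). Shared bases, here and below, are of whole gene spans with introns. The libraries do not mark strand, and whether reads of both genes were mixed there was not tested. The aspartic protease Ctsd stood at 0.461 of Input (log2 −1.12) and the carboxypeptidase Ctsz at 0.573 (log2 −0.80). Ctsa, which protects β-galactosidase and neuraminidase in a complex, stood at 0.514 (adjusted p = 0.00639), a call that was lost without Input replicate 2 (limma adjusted p = 0.056). It overlaps Pltp and Neurl2, which were lower as well. In contrast, Ctsl (chromosome 13, 64361890 to 64370772), another cysteine cathepsin, measured 57.7 and 66.3 in eIF4E, 10.5 in IgG and 37.3 and 39.3 in Input. Both eIF4E values lay above both Input values, 1.6-fold on average (log2 0.68, SE 0.09, limma adjusted p = 0.00211). Tpp1, the tripeptidyl peptidase lost in a childhood form of neuronal ceroid lipofuscinosis, had overlapping libraries at 24.6 and 34.2 in eIF4E, 78.9 in IgG and 32.1 and 31 in Input, and did not pass (adjusted p = 0.541). Without eIF4E replicate 2 it passed as lower (adjusted p = 0.0204).

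Enzymes of glycogen and glycoprotein breakdown had 4 of 5 tested members lower and 1 higher. Gaa (chromosome 11, 119267963 to 119285458), the acid α-glucosidase that degrades glycogen, measured 13.3 and 14.9 in eIF4E, 6.08 in IgG and 46.9 and 41.4 in Input. Both eIF4E values lay far below both Input values, at 0.334 of Input (log2 −1.58, SE 0.10, limma adjusted p = 2.3e-04). The mannosidase Man2b1 stood at 0.571 of Input and the fucosidase Fuca1 at 0.657 (log2 −0.81 and −0.61). Neu1, the sialidase, stood at 0.769 (adjusted p = 0.0249). Leaving out eIF4E replicate 1, eIF4E replicate 2 or Input replicate 1 ended this call (adjusted p = 0.0646, 0.115 and 0.0977), as did rescaling to the same total (0.262). Aga (chromosome 8, 53511683 to 53523422), which cleaves the link between asparagine and sugar, was the one member of this class that was higher. It measured 25 and 27.5 in eIF4E, 20 in IgG and 15.8 and 16.9 in Input, with both eIF4E libraries above both Input libraries (1.57-fold, log2 0.65, SE 0.08, limma adjusted p = 0.00187).

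In the glycosaminoglycan class 1 of 6 tested members was lower, 1 was higher and 4 did not pass. Naglu (chromosome 11, 101070090 to 101077672), the α-N-acetylglucosaminidase of heparan sulfate breakdown, measured 2.16 and 2.27 in eIF4E, 0 in IgG and 16.4 and 18.5 in Input. Both eIF4E values were far below both Input values, and the mean stood at 0.174 of Input on the value + 1 scale (log2 −2.52, SE 0.11, limma adjusted p = 1.0e-04), the lowest ratio among the members tested. Ids (chromosome X, 70343069 to 70385834), the iduronate sulfatase, went the other way at a low level. It measured 1.8 and 2.33 in eIF4E, 0 in IgG and 0.43 and 0.47 in Input, 2.11-fold on the same scale (log2 1.07, SE 0.14, limma adjusted p = 0.00218), the highest ratio among the members tested, and it had to be high in eIF4E to be tested at all. The others were close to Input: Idua, the iduronidase, at 0.876 of it, Galns and Arsb, sulfatases of keratan and dermatan sulfate, at 0.832 and 0.842, and the β-glucuronidase Gusb at 0.856. Of these 4, Idua shares 8503 bases with Slc26a1, too low to be tested, and 500 with Dgkq, which did not pass. Idua also shares 1544 bases with a long noncoding RNA, and Galns 4347 with a pseudogene, both without a value found. Galns further shares 1686 bases with a pseudogene at 0 in every library and 76 with Trappc2l, which was lower. All 4 had eIF4E libraries below the Input libraries, with limma adjusted p of 0.267, 0.156, 0.157 and 0.194. They passed as lower after median-of-ratios scaling (0.0384, 0.0214, 0.0237 and 0.0226) and after quantile normalization (0.00479, 0.0025, 0.00321 and 0.00935). Galns also passed without eIF4E replicate 1 (0.0425).

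Hydrolases of sphingolipids and other lipids had 6 of 9 members lower and 1 higher. Smpd1 (chromosome 7, 105554360 to 105558389), the acid sphingomyelinase, was the most abundant and measured 47.2 and 47.4 in eIF4E, 11.3 in IgG and 73.8 and 71.2 in Input. Its replicates lay close together and stood at 0.657 of Input (log2 −0.61, SE 0.05, limma adjusted p = 6.3e-04). Hexa, a subunit of the hexosaminidase that degrades the ganglioside GM2, stood at 0.473 of Input and the β-galactosidase Glb1 at 0.438 (log2 −1.08 and −1.19). Glb1 shares 10107 bases with Tmppe, which stood at 0.861 and did not pass, and 11142 with a long noncoding RNA for which no value was found. The sulfatase Arsa stood at 0.619, the α-galactosidase Gla at 0.67 and the acid lipase Lipa at 0.663. The call of Gla was lost without Input replicate 1 or 2 (adjusted p = 0.0567 and 0.0536). Ppt1, a thioesterase that removes palmitate from proteins, stood at 0.849 and did not pass (adjusted p = 0.081), although it passed as lower after median-of-ratios scaling (0.00356) and quantile normalization (0.0238). Galc, the galactosylceramidase, had overlapping libraries at 1.53 and 2.82 in eIF4E and 1.85 and 1.32 in Input, and did not pass (adjusted p = 0.348).

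Asah1 (chromosome 8, 41340646 to 41397644), the acid ceramidase, was the lipid hydrolase that was higher. It measured 8.69 and 8.26 in eIF4E, 12.6 in IgG and 3.99 and 5.82 in Input, or 1.62 times Input (log2 0.70, SE 0.17, limma adjusted p = 0.0175). This call was lost without either eIF4E replicate (adjusted p = 0.0926 and 0.0776), after median-of-ratios scaling (0.0791) and after quantile normalization (0.437). The span of Asah1 also shares 8464 bases, introns included, with that of Frg1, a far more abundant gene that was 1.85-fold higher. Whether reads of both were mixed there was not tested.

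All 4 activators and soluble carriers were lower in eIF4E. Psap (chromosome 10, 60277628 to 60302600), the precursor of the saposins that present sphingolipids to their hydrolases, was the most abundant member of all. It measured 237 and 245 in eIF4E, 118 in IgG and 457 and 459 in Input, or 0.527 of Input (log2 −0.92, SE 0.04, limma adjusted p = 1.1e-04). The libraries within each group differed by far less than the groups did. Gm2a (chromosome 11, 55097985 to 55113029), the activator that lifts GM2 out of the membrane, measured 10.3 and 9.42 in eIF4E, 26.3 in IgG and 26.3 and 26.5 in Input, at 0.395 of Input (log2 −1.34, SE 0.07, limma adjusted p = 1.7e-04). Grn, the progranulin gene, stood at 0.479 (log2 −1.06) and Npc2, which hands cholesterol to the membrane protein NPC1, at 0.608 (log2 −0.72).

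Of the membrane proteins, 6 of 9 were lower and 3 higher, beside 30.6% and 43.3% of all tested genes. Lamp1 (chromosome 8, 13159161 to 13175338), a heavily glycosylated protein of the limiting membrane, measured 62.3 and 67.8 in eIF4E, 29.7 in IgG and 199.5 and 187 in Input, at 0.34 of Input (log2 −1.56, SE 0.07, limma adjusted p = 1.1e-04). Its relative Lamp2, which also serves chaperone-mediated autophagy, measured 10.4 and 8.04 in eIF4E, 0.83 in IgG and 5.95 and 6.15 in Input. Lamp2 was thus lower in level than Lamp1 in every library but higher in eIF4E than in Input (1.44-fold, limma adjusted p = 0.0237). It shares 13570 bases with a long noncoding RNA for which no value was found. Lamp2 no longer passed without eIF4E replicate 1 (adjusted p = 0.0697), without Input replicate 1 or 2 (0.113 and 0.0983), after median-of-ratios scaling (0.168) and after quantile normalization (0.978, with a log2 change of 0.00526).

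Cd63 (chromosome 10, 128896231 to 128912822), a tetraspanin of late endosomes and lysosomes, measured 95 and 96.7 in eIF4E, 34.9 in IgG and 255.5 and 264 in Input, at 0.372 of Input (log2 −1.43, SE 0.05, limma adjusted p = 6.9e-05). Pip4p2 (chromosome 4, 14864219 to 14915260), a phosphatase of phosphatidylinositol 4,5-bisphosphate, measured 43.9 and 45.6 in eIF4E, 23.4 in IgG and 23 and 24.9 in Input, or 1.84 times Input (log2 0.88, SE 0.07, limma adjusted p = 4.2e-04). Its Input and IgG values were alike, and both eIF4E values were higher. Scarb2, the receptor that carries glucocerebrosidase to the lysosome, was 1.49-fold higher (adjusted p = 0.00163). The cystine exporter Ctns stood at 0.655 of Input, the calcium channel Mcoln1 at 0.637, Cln3, lost in juvenile neuronal ceroid lipofuscinosis, at 0.67, and the cholesterol transporter Npc1 at 0.684. Each of Mcoln1, Cln3 and Npc1 lost its call without Input replicate 2 (adjusted p = 0.0986, 0.174 and 0.0544). Mcoln1 and Cln3 also lost it without Input replicate 1 (0.0932 and 0.0823) and after rescaling to the same total (0.0533 and 0.111), and Cln3 without eIF4E replicate 2 (0.0918). Npc1 shares 8982 bases with Rmc1, which did not pass.

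**Figure D4:**
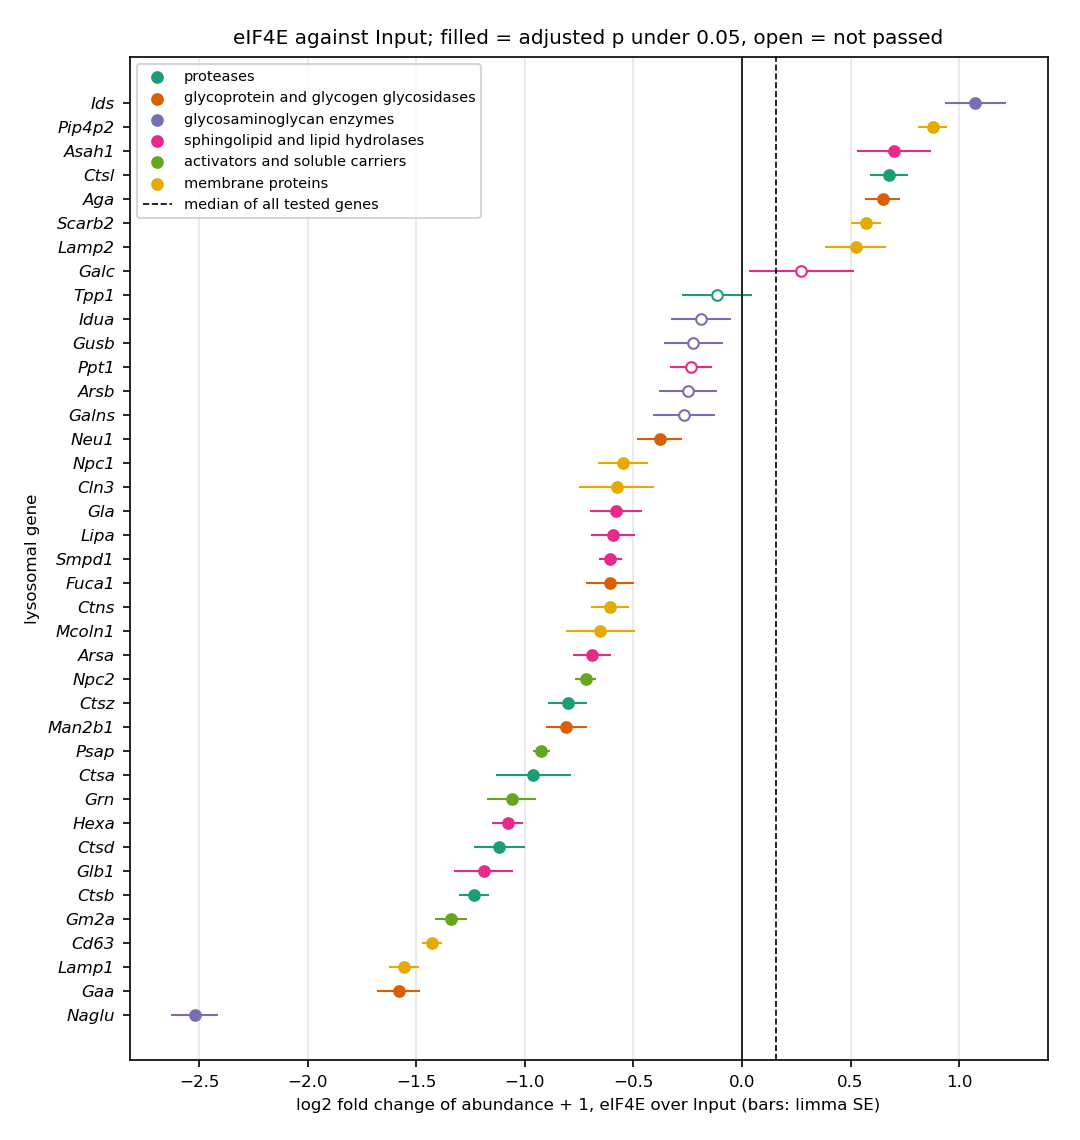
Log2 fold change of value + 1 in eIF4E over Input for the 39 tested members, with limma standard errors, coloured by role. Filled points passed at adjusted p under 0.05 and open points did not, the dashed line marks the median of all tested genes at 0.16, and Naglu at −2.52 and Ids at 1.07 are the extremes.

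Members with CACGTG in their promoter had 10 of 11 tested lower and 1 higher, with a median log2 change of −0.96. Those with a promoter in the table and no match had 13 of 22 lower and 3 higher, with a median of −0.60. The median Input level was similar, at 23.5 with a match and 21.6 without. Over all tested genes with a promoter in the table, 35% of 1133 genes with a match were lower and 44.2% higher, beside 30.5% lower and 44% higher of 8498 without one, with medians of 0.15 and 0.17. The difference between the members with and without a match was not tested, and the ranges overlapped (−2.52 to 0.68 with, −1.43 to 1.07 without). The value of 1.07 is that of Ids, which was tested only through its eIF4E libraries.

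Setting eIF4E against IgG addresses how the precipitate differed from that of the control antibody. The 1 IgG library was given the spread of the other groups, and the comparison shares the eIF4E libraries with the comparison above. Higher here means a larger relative abundance and says nothing of amounts. Of the 39 members, 21 were higher in eIF4E and 11 lower, where 53.1% of all tested genes were higher, 30.6% lower and 83.8% either, so the share higher is close to that of all genes. Medians were 0.91 for the members and 0.55 for all genes on the log2 scale, a gap of 0.35. Among genes above 0 in all 5 libraries the median of all genes was 0.0277 and the gap 0.10, and with a pseudocount of 5 the gap was 0.12. It was 0.21 after quantile normalization and 0.57 with no filter. Quantile normalization gave 16 higher and 11 lower members, beside 4609 higher and 4835 lower of all genes, where 6785 and 3912 were counted as deposited.

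IgG listed 7 of the 39 at 0: Naglu, Idua, Ids, Hexa, Gla, Glb1 and Arsa. All 7 counted as higher in eIF4E, no fold is given for them, and the calls of Naglu, Idua, Ids, Gla and Glb1 were lost after quantile normalization (adjusted p = 0.204, 0.174, 0.336, 0.356 and 0.914). Genes at 0 were common in IgG at these levels. For an Input mean from 10 to 50, 3 of 20 members and 13.1% of 3494 tested genes were at 0. From 1 to 10 these were 3 of 11 members and 31.7% of 5351 genes.

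Above 0 in IgG, the members furthest higher in eIF4E were Lamp2 (log2 2.47), Ctsl (2.45), Npc2 (2.07), Fuca1 (1.99) and Smpd1 (1.98), each with a limma adjusted p of 1.9e-04 or less. Npc2, for example, measured 167 and 174 in eIF4E against 39.9 in IgG. By contrast, Lamp2 and Fuca1 were near the floor in the 1 IgG library, at 0.83 and 1.46. The abundant Psap, Cd63, Lamp1 and Ctsb, all lower than Input, were higher than IgG by log2 1.03, 1.43, 1.11 and 1.15. Lower in eIF4E than in IgG were Galns (3.2 and 2.32 against 17.1), Galc, Npc1 (tested only through IgG and Input), Ppt1, Tpp1, Mcoln1, Gm2a, Lipa, Arsb, Gusb and Scarb2, from log2 −2.28 to −0.51. Of these, Arsb and Gusb lost their calls when eIF4E replicate 1 (adjusted p = 0.0541 and 0.0746), Input replicate 1 (0.0608 and 0.0724) or Input replicate 2 (0.0608 and 0.072) was left out. Asah1, which did not pass (adjusted p = 0.0711), passed as lower without Input replicate 1 or 2 (0.0205 and 0.0212), and Cln3 passed as lower without eIF4E replicate 1 (0.0314).

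The comparisons with Input and with IgG share the eIF4E libraries, so their calls are only set side by side. In both, 5 of the 39 members (Ctsl, Pip4p2, Lamp2, Aga and Ids) and 19.8% of all tested genes were higher in eIF4E. For Ctsl and Pip4p2 both calls held under every alternative run. Aga lost its call against IgG without eIF4E replicate 2 (adjusted p = 0.0613) and after rescaling to the same total (0.756), and the limits on Lamp2 and Ids are given above. Lower in both were 4 members (Gm2a, Npc1, Mcoln1 and Lipa) and 7.2% of all tested genes, and of these members Gm2a and Lipa kept both calls under every alternative run. Npc1 was tested only through IgG and Input, and Ids only through eIF4E, so the filter helped to set their direction in these counts. Lower than Input and higher than IgG were 15 members, Naglu, Gaa, Lamp1, Cd63, Ctsb and Psap among them, and 18.6% of all tested genes.

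The comparison of IgG with Input shows what the control precipitate held. Of the 39 members, 24 were lower and 10 higher in IgG, where 50.3% of all tested genes were lower, 37.8% higher and 88.1% either, and the medians were −0.96 and −0.43, a gap of −0.54. That gap was −1.06 after quantile normalization and −0.89 among genes above 0 in all 5 libraries, where the median of all genes was 0.26. Rescaled to the same total, 19 were lower and 14 higher. Members that were low in both precipitates relative to Input included Cd63 (95 and 96.7 in eIF4E, 34.9 in IgG), Lamp1, Ctsb, Ctsd and Gaa. Tpp1, Galns, Galc, Ppt1, Asah1, Scarb2, Npc1, Mcoln1, Lipa and Aga were higher in IgG than in Input. Of these 10, Aga, Lipa and Mcoln1 lost the call when 1 library was left out. Aga did so without Input replicate 1 or 2 or eIF4E replicate 2 (adjusted p = 0.164, 0.0871 and 0.0506), Lipa without Input replicate 2 or either eIF4E replicate (0.113, 0.0672 and 0.0678), and Mcoln1 without Input replicate 1 or 2 (0.0994 and 0.0944). Among the falls, Ids lost its call without Input replicate 1 or 2 (0.0919 and 0.108), Neu1 without Input replicate 1 (0.0593) and Ctsa without Input replicate 2 (0.0593).

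**Figure D5:**
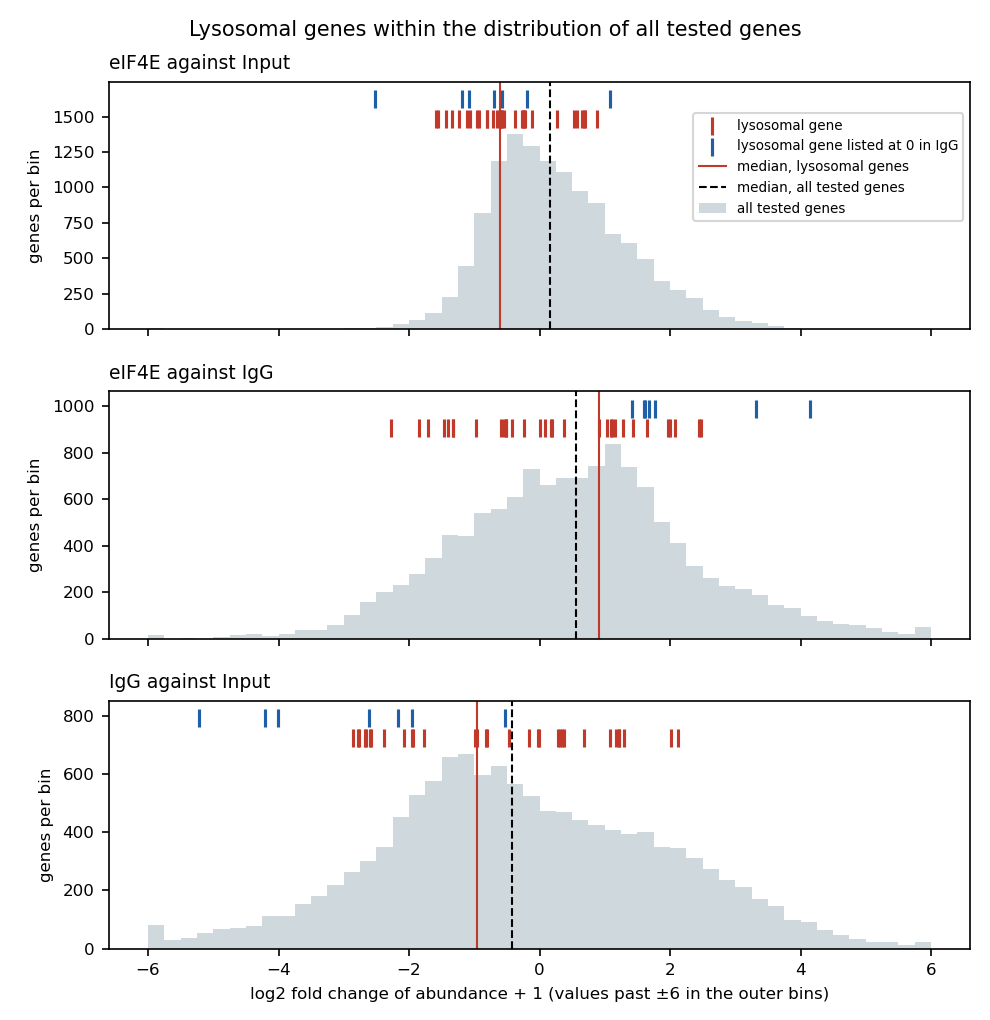
Log2 fold changes of the 39 tested members (ticks) over the distribution of all 12769 tested genes (grey bars, genes per bin of 0.25) in the comparisons of eIF4E with Input, eIF4E with IgG and IgG with Input. Blue ticks are members listed at 0 in IgG. The member median (red line) lies at −0.61, 0.91 and −0.96, and that of all genes (dashed) at 0.16, 0.55 and −0.43.

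Other genes of the pathway were followed through lists that do not hold the members. In these lists and the marker lists, Cpq, Gnptab, Fnip1, Fnip2 and Tm6sf1 passed the filter through the precipitates alone and Ctsh, Slc66a1 and Flt1 through Input alone. They thus had to differ to be tested, and the counts include them. Of all tested genes, 30.6% were lower and 43.3% higher in eIF4E than in Input. The list of other lysosomal hydrolases also holds lysosomal proteins of other kinds, such as Hgsnat, Glmp and Pcyox1. It had 17 of 28 tested genes lower and 4 higher in eIF4E than in Input, with a median log2 change of −0.57. The lowest were Plbd2 (log2 −1.13) and the asparaginyl protease Lgmn (−1.06; 22.4 and 21.8 in eIF4E, 0 in IgG and 46.3 and 47.9 in Input), and the highest were the cathepsin Ctso (1.13) and the nuclease Dnase2a (0.80). Other membrane proteins had 18 of 27 lower and 6 higher, with a median of −0.34. Cln6 (−1.51) and Tmem192 (−1.31) were the lowest and Tmem106b (1.46) and Ostm1 (0.99), the β subunit of the chloride transporter CLC-7, the highest. Against the 1 IgG library, log2 changes in eIF4E were −2.28 for Ctso, −0.06 for Dnase2a and −0.44 for Ostm1. They were −1.02 for Plbd2 and 0.09 for Cln6. Lgmn, Tmem192 and Tmem106b were at 0 in IgG.

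The machinery that delivers the enzymes had 6 of 16 lower and 6 higher, shares near those of all tested genes (30.6% lower and 43.3% higher), with a median of −0.19. Gnptab, a subunit of the enzyme that makes the mannose 6-phosphate tag, and Ap1g1, a subunit of the AP-1 adaptor, were higher by log2 1.81 and 1.81, Gnptab with 0.58 and 0.42 in Input and so tested only through the precipitates. Another AP-1 subunit, Ap1b1, was lower (log2 −1.33), as was the adaptor Gga1 (−0.65). Against the 1 IgG library, eIF4E differed by log2 −1.76 for Gnptab, 0.17 for Ap1g1, −0.70 for Ap1b1 and −0.80 for Gga1. M6pr, a mannose 6-phosphate receptor, measured 44.9 and 48.7 in eIF4E, 18.6 in IgG and 37.7 and 37.2 in Input (log2 0.31). Among the MiT factors and their regulators, 5 of 7 tested were higher and 1 lower, and 2 of the 5, Fnip1 and Fnip2, were tested only through the precipitates. Tfe3 was the lower one, at 20.2 and 23 in eIF4E, 13.7 in IgG and 40.4 and 37.9 in Input (log2 −0.83), while the phosphatase subunit Ppp3cb (1.53) and the zinc finger repressor Zkscan3 (1.45) were the highest. Tfeb was too low to be tested, at 0.67 and 1.1 in eIF4E, 0 in IgG and 0.54 and 0.78 in Input. Against IgG, eIF4E differed by log2 0.62 for Tfe3, −2.11 for Ppp3cb and −0.77 for Zkscan3. The median of the 7 tested was −0.77, beside 0.55 for all tested genes.

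Most tested markers of other cell types were lower in eIF4E than in Input, as most members were. Of all tested genes, 30.6% were lower and 43.3% higher, which is the measure for each count here. Of 17 microglial and macrophage markers, 12 were tested and 7 were lower and 1 higher in eIF4E than in Input, and their summed level was 50.2 and 38.4 in eIF4E, 29.6 in IgG, and 86.5 and 105 in Input. C1qc (log2 −1.58) and C1qb (−1.57) were the lowest and Lyz2 (0.44) the higher one, and Cd68 also stands in a lysosomal list. C1qc measured 2.7 and 2.75 in eIF4E, 0 in IgG and 9.82 and 10.4 in Input, Cd68 0.93 and 1.7 in eIF4E, 0.27 in IgG and 5.14 and 3.97 in Input, and Aif1 5.81 and 1.87 in eIF4E, 0 in IgG and 1.8 and 3.95 in Input. None of the 17 was at 0 in an eIF4E or Input library, and 13 were at 0 in IgG. Endothelial and mural markers summed to 142 and 136 in eIF4E, 35.1 in IgG, and 330.4 and 339 in Input, with 7 of 12 tested lower (Vtn, log2 −1.54, and Slc2a1, −1.46, most) and 1 higher (Rgs5, 1.39). The 12 erythroid markers found summed to 6449.9 and 4846 in eIF4E, 2541 in IgG, and 17171 and 18703 in Input, and all 10 tested were lower, Hba-a2 (−2.94) and Hbb-bh1 (−2.16) most. Those of meninges and mesenchyme summed to 104 and 100.4 in eIF4E, 366 in IgG, and 169 and 158 in Input, with 4 of 6 tested lower, Igf2 (−2.04) and Col1a1 (−1.85) most, and Dcn (1.35) and Lum (1.25) higher. Neocortical markers went mostly the other way, with 11 of 15 higher and 3 lower, at a sum of 2174 and 2080.2 in eIF4E, 2020.1 in IgG, and 2329 and 2372 in Input. Map2 (log2 2.18) and Dcx (2.12) were the highest and Emx1 and Hes5 the lowest, at 0.369 and 0.502 of Input. Genes of neurons and of progenitors stood on both sides: neuronal Tubb3 was lower (−0.71), and Fabp7 (1.93) and Pax6 (1.28) of progenitors were higher, these 3 being named after their values were seen. Against the 1 IgG library, eIF4E differed by log2 −1.02 for Map2, −1.78 for Dcx, 0.50 for Emx1 and −0.67 for Hes5. The median log2 change of eIF4E against IgG was −0.37 for the neocortical markers, beside 0.55 for all tested genes. It was 1.34 for microglial, 1.88 for endothelial and mural, 1.02 for erythroid, and −0.89 for meningeal and mesenchymal markers. The part that other cells had in the values of the members was not tested.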

How the data were processed

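The labels describe Input and precipitated RNA of dissociated cortical cells, made into Smart-seq2 libraries from polyadenylated RNA, a method that marks neither strand nor molecules. Per the submitters' processing notes, reads were processed with STAR 2.7.9a and RSEM 1.3.3 on mm10. The values deposited by the authors are an abundance signal per gene and library, either TPM or FPKM. For annotation version, options and filters: not given in the sources used here. No counts were used here, so precision is known only from the spread between libraries, called biological in the titles.

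Of 50161 rows, 286 repeats were dropped. Titles gave the groups, eIF4E (n = 2), IgG (n = 1) and Input (n = 2). Genes with at least 1 in at least 2 libraries (12769) were fitted as log2(value + 1) with limma 3.58.1 in R 4.3.3 (3 groups, trend, two-sided, Benjamini-Hochberg over all genes, threshold 0.05). Fold changes on that scale understate low genes. The fit had 2 residual and 2.57 prior degrees of freedom and was tested on simulated data. Alternatives changed scaling, pseudocount, filter, variance trend, libraries and block.

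Members and lists were chosen with earlier results of these data known. Every member is named. Full statistics are given for the 6 lowest and 5 highest past the threshold with separate libraries and for the most abundant of each role, and in other lists the 2 extremes per direction and a few fixed genes are named, of which some results are not reported here. Positions and promoters are RefSeq's for GRCm38.p6, the assembly of mm10, and all 41 members had a position.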

Additional observations from a re-analysis of the deposited data

How the results depend on the processing

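In eIF4E against Input, between 20 and 30 members were lower and between 5 and 7 higher under every alternative run, beside 25 and 7. Leaving out 1 library gave 20 to 25 lower and 5 to 6 higher. Over the 39 members and the alternatives run, 493 values kept direction and side of the threshold, 29 lost a call, 13 gained one and 4 turned sign, none of the 4 past the threshold: Galc (quantile normalization, log2 −0.13, and −0.0234 to 0.57 with 1 library left out) and Tpp1 (same total, 0.12, and −0.34 to 0.11 with 1 library left out, where the lower value, without eIF4E replicate 2, passed).

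Against IgG, signs turned for uncalled members only: Ctsa (median-of-ratios, −0.0379, same total, −0.32, and −0.21 to 0.22 with 1 library left out), Man2b1 (quantile, −0.22, and same total, −0.12), Neu1 (same total, −0.25) and Ctns (same total, −0.12). In IgG against Input they turned under quantile normalization for Aga (−0.0968), Ids (0.32), Gusb (−0.12) and Lipa (−0.00773), with the same total for Neu1 (0.10), Cln3 (0.41), Gm2a (0.56) and Pip4p2 (0.54), the last 2 then past the threshold as higher, and with 1 library left out for Pip4p2 (−0.0832 to 0.028). Gm2a and Pip4p2 passed instead as lower after median-of-ratios scaling (−0.28 and −0.30, adjusted p = 0.0341 and 0.0304), and Pip4p2 also after quantile normalization (−0.31, 0.0263). The cause was not tested. Among genes above 0 in all 5 libraries, 4389 were higher in eIF4E than in IgG and 4072 lower in IgG than in Input, against 6785 and 6428, since genes at 0 in IgG are left out.

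The labels give eIF4E and Input the same replicate numbers without saying that these mark shared animals. Deviations of same-numbered libraries correlated with r = 0.0236 across genes. With a replicate block 26 members were lower and 7 higher, and 3741 and 5399 of all genes, beside 3906 and 5535. The gained call was Ppt1 (adjusted p = 0.0429). Read depth is unknown, which limits what can be said of members below about 2, such as Manba, Sgsh and Ids.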

Other observations

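CACGTG was also common in promoters of the machinery that sorts lysosomal enzymes, where 6 of 14 genes with a promoter in the RefSeq table held it (42.9%). Across the lists of other lysosomal hydrolases and membrane proteins it was found in 7 of 43 (16.3%). Of 14 neocortical marker genes with a promoter none held it, and of 12 microglial markers 1 did. By role among the members, it was found in 3 of 5 proteases, 3 of 7 membrane proteins, 3 of 8 lipid hydrolases, 2 of 6 glycosaminoglycan enzymes, 1 of 5 glycosidases and none of the 4 activators and soluble carriers. Of all tested genes with a promoter there, 11.8% held it. These counts carry no test.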
